A study of Mus musculus with 14 samples.

Results

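The genes described here encode the subunits of voltage-gated and related cation channels. They were chosen as the protein-coding genes of the GENCODE annotation of the mouse genome (mm10, GRCm38) whose symbol starts with Kcn and a letter (potassium channels and their accessory subunits), is Scn with a number and a or b (sodium channels), or starts with Cacna, Cacnb or Cacng (calcium channels). The rule uses names alone and finds 134 of 21938 protein-coding genes. They were followed in ChIP-seq region lists of 81K1 cells made with 5 antibodies: 2 against proteins (Ezh2 and Smarca4) and 3 against histone marks (H3K4me3, H3K27me3 and H3K27ac). The line 81K1 is a single mouse embryonic stem cell (mESC) line made from OG2 cells, and both of its conditions carry the inducible shRNA against Smarcb1, a subunit of the BAF chromatin remodelling complex. Control cells were left untreated, and Smarcb1 kd cells received 1 µg doxycycline per ml of medium daily and were taken after 72 h. All cells grew in serum and LIF. Every antibody and condition is represented by 1 library, so that condition and library cannot be told apart, and the inputs enter through the authors' region calls alone. No test between conditions was possible. Results are therefore counts of called regions, and a region missing from a list is a region that was not called, not a measured loss.

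Ion channels are pore proteins that let a chosen ion cross the membrane. Voltage-gated sodium and calcium channels carry the rising phase of electrical signals and the calcium entry that follows, whereas potassium channels set the resting potential and end the signal. In embryonic stem cells many genes of later neural and muscle function carry H3K27me3, the mark written by Ezh2 in Polycomb repressive complex PRC2. Promoters with H3K27me3 and H3K4me3 together are called bivalent, and H3K27ac marks active promoters and enhancers. Smarca4 is an ATPase of the BAF complex.

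The 134 genes form 11 subfamilies: 40 pore-forming voltage-gated potassium channel subunits (Kv), 15 inward rectifiers (Kcnj), 14 K2P leak channels (Kcnk), 12 genes of calcium- or sodium-activated potassium channels, 13 potassium channel accessory subunits, 10 pore-forming and 4 beta subunits of sodium channels, and 10 alpha1, 4 alpha2delta, 4 beta and 8 gamma family genes of calcium channels. Channel genes are long. The gene region, which runs from the gene's end to 1 kb before its TSS, had a median of 43.5 kb against 18.4 kb over all protein-coding genes, and ranged from 2.54 kb at Kcne1l to 1136 kb at Kcnip4. Of the 134 genes, 43 (32.1%) lay in the 2 longest of 20 equally filled length classes of protein-coding genes (regions of at least 111 kb). Since a longer region meets a called region more readily, each count is set beside the share of all protein-coding genes and beside a length-standardised share, the share of all genes within each of 20 length classes weighted by the number of channel genes in that class.

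The labels could be checked only in part. An shRNA acts on the mRNA, so that peak lists do not show whether Smarcb1 was depleted. Of 8 pluripotency genes fixed as markers, 7 had an H3K4me3 island at the promoter in both conditions, and H3K27ac was called at 5 in control and 7 after Smarcb1 kd. H3K27me3 was called at 2 of the 8 in control (Esrrb and Klf4) and at Esrrb after kd. All 5 neural regulators on the list carried H3K27me3 in both conditions, and H3K27ac was called at 0 of them in control and 1 after kd. The lists give no read counts, so that the depth reached is unknown. The whole Ezh2 list shortened from 6708 to 5364 peaks after kd and the H3K27me3 list from 22909 to 18320 islands, whereas the H3K27ac list grew from 39091 to 51100 and the H3K4me3 list from 26130 to 33506. The Smarca4 list held 79014 peaks in control and 72339 after kd. By the methods, Smarca4 and H3K27me3 were processed by a company and the other antibodies in the authors' laboratory, so that a contrast between these antibodies cannot be told apart from a contrast between laboratories.

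H3K27me3 and Ezh2 were found at far more channel genes than their length gives. An H3K27me3 island lay in the gene region of 116 of the 134 channel genes in control cells (86.6%, 95% Wilson interval 79.8 to 91.3), against 42.4% of all protein-coding genes and a length-standardised 52%. After Smarcb1 kd there were 110 (82.1%) against 35.6% of all genes and 46.7% at equal length. For Ezh2 the numbers were 65 in control (48.5%, interval 40.2 to 56.9) and 77 after kd (57.5%, interval 49 to 65.5), against 12.6% and 15.4% of all genes and 21.9% and 24.1% at equal length. The intervals cover the counting of genes only. Both marks of repression thus stood above the length-standardised share in both conditions.

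Smarca4 lay somewhat above the length-standardised share in control, H3K4me3 close to it and H3K27ac below it. Smarca4 peaks were called in 117 channel genes in control (87.3%, interval 80.6 to 91.9) and 114 after kd (85.1%, interval 78.1 to 90.1). The shares of all genes were 70.3% and 71.7%, and 80.2% and 81.4% at equal length, of which the first lies just below its interval and the second inside. H3K4me3 islands lay in 93 genes in control and 107 after kd (69.4% and 79.9%), against 63.4% and 68.1% of all genes and 74.9% and 78.9% at equal length. For H3K27ac the 45 genes in control and 66 after kd (33.6% and 49.3%) matched the 32.4% and 48.2% of all genes but fell short of the 46.8% and 61.1% at equal length. Without islands that were repeat-masked over at least 50% of their bases, H3K27ac was left in 10 channel genes in control and 29 after kd, and the length-standardised shares were 26.2% and 39.3%. With all islands kept, whether H3K27ac in gene regions appears typical of the genome or depleted therefore depends on the correction for length. Within 1 kb of the TSS it was called at 2.99% and 10.4% of channel genes. These shares lay below the 16% and 30.9% of all genes without that correction.

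**Figure D1:**
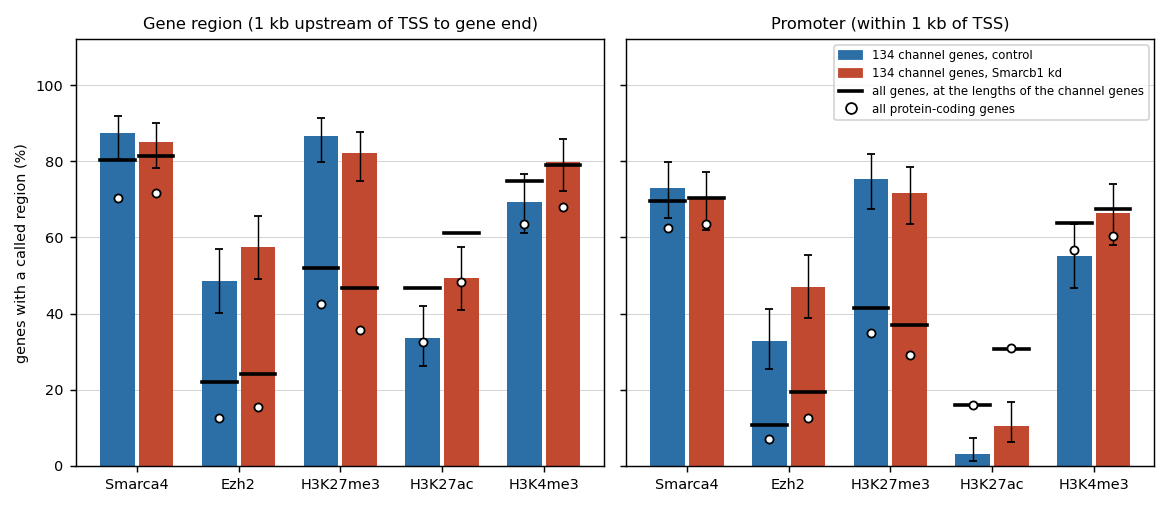
Share of genes (%) with a called region, in the gene region (left) and within 1 kb of the TSS (right), for 134 channel genes in control (blue) and Smarcb1 kd (red), 1 library each. Error bars are 95% Wilson intervals (counting error only), black lines the length-standardised share and circles the share of all protein-coding genes. The H3K27me3 and Ezh2 bars stand above both references, and the H3K27ac bars stand below the black lines.

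The contrast was present in short genes, and it varied with length. Of the 23 channel genes with a region of up to 10 kb, 18 (78.3%) had an H3K27me3 island in control against 33.2% of all genes of that length, and from 10 to 30 kb the shares were 93.9% and 39.3%. In the class above 300 kb the shares were 94.7% of 19 channel genes and 86.5% of all genes. Ezh2 in the shortest class was called at 5 of 23 channel genes in control and 11 after kd (21.7% and 47.8%), against 6.58% and 9.49% of all genes of that length, and from 30 to 100 kb it was at 60% in control against 13.7%. H3K27ac islands were called in 2 of these 23 genes in control and 1 after kd (8.7% and 4.35%), against 11.8% and 25.2% of all genes of that length. Above 300 kb they were in 17 and 19 of the 19 genes (89.5% and 100%), against 92.1% and 93.7%. The rise with length was thus shared by all genes. In the class from 30 to 100 kb, H3K27ac was called in 7 of 35 channel genes in control (20%) against 47.6% of all genes.

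**Figure D2:**
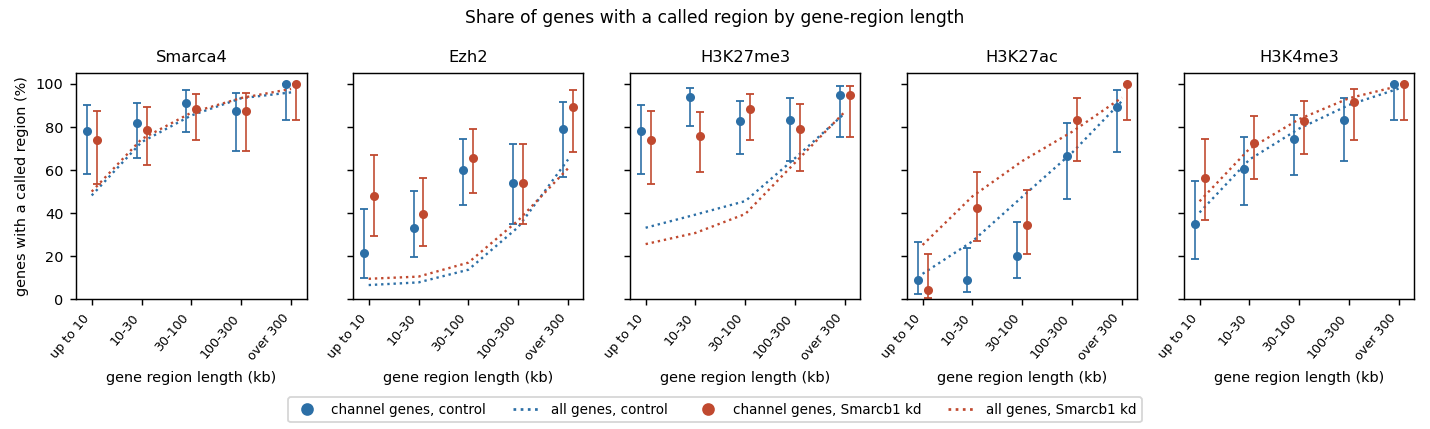
Share of genes (%) with a called region against gene-region length in 5 classes (kb), with 1 panel per antibody. Points are channel genes with 95% Wilson intervals and dotted lines all protein-coding genes, in control (blue) and Smarcb1 kd (red). The H3K27me3 points of control lie between 78.3% and 94.7% in all classes while the dotted lines climb with length, and the H3K27ac points up to 100 kb lie under their lines.

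Regions were also asked for within 1 kb of the TSS, a window equal for all genes. For Ezh2 in control, all genes stood there at 5.4% up to 10 kb and 29.7% above 300 kb, so that length still entered. Seen along the gene, the Smarca4, Ezh2 and H3K4me3 regions of channel genes were concentrated at the TSS, while H3K27me3 spread widely. In the 500 bp bin just downstream of the TSS, 24.6% of channel genes held an Ezh2 peak in control and 44% after kd, against 6.22% and 11.7% of all genes. H3K27me3 reached 75.4% of channel genes near the TSS in control and was still called at 41.8% of them 10 kb downstream, and at 28.4% after kd. Over all genes it reached 32.6% in control, with 16.6% in control and 11.2% after kd at 10 kb downstream. H3K27ac showed no comparable summit at the TSS of channel genes. Its highest bins, 6.72% in control and 11.9% after kd, lay more than 10 kb upstream, whereas over all genes it reached 14.3% and 27.9% just downstream of the TSS.

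**Figure D3:**
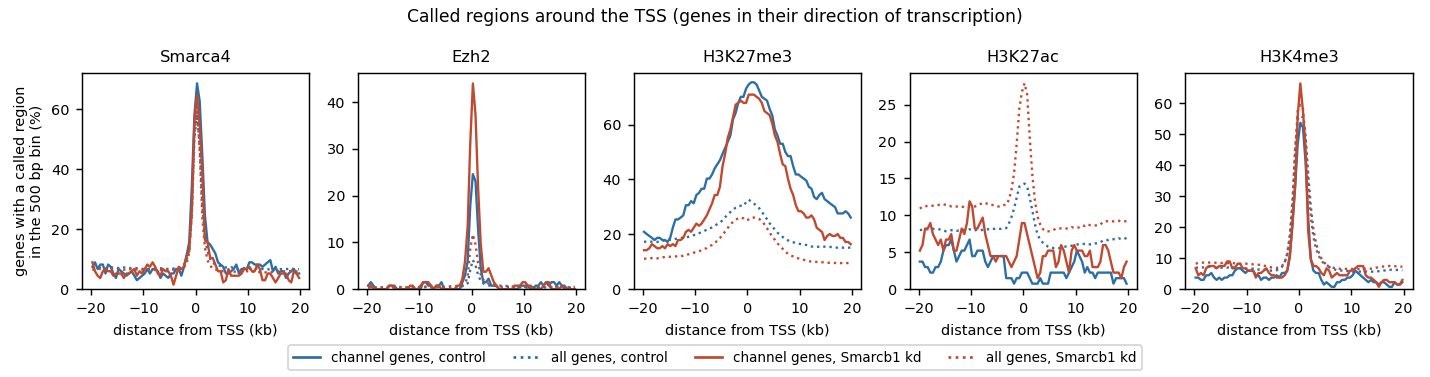
Share of genes (%) with a called region in each 500 bp bin against the distance from the TSS (kb), with genes in their direction of transcription and 1 panel per antibody (vertical scales differ). Solid lines are channel genes and dotted lines all protein-coding genes, in control (blue) and Smarcb1 kd (red). Ezh2 rises to 24.6% in control and 44% after kd at channel genes, and H3K27ac has its summit at the TSS over all genes only.

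The bivalent state was the most frequent one at channel promoters. In control cells 67 of the 134 (50%, interval 41.7 to 58.3) carried H3K27me3 and H3K4me3 within 1 kb of the TSS, against 21.2% of all genes and 28.7% at equal length. A further 34 (25.4%) carried H3K27me3 without H3K4me3, against 13.7% of all genes and 12.7% at equal length. H3K4me3 alone was at 7, a state found at 35.3% of all genes. No island of either mark was called at the remaining 26 (19.4%), against 29.7% of all genes and 23.4% at equal length. Over the single marks, H3K27me3 was at 101 promoters in control and 96 after kd (75.4% and 71.6%). All protein-coding genes stood at 34.9% and 29.2%, and at 41.5% and 37% at equal length. H3K4me3 was at 74 and 89 (55.2% and 66.4%), beside 56.6% and 60.4% of all genes and 63.8% and 67.5% at equal length. Smarca4 was called at all 67 bivalent promoters, at 21 of the 34 with H3K27me3 only, and at 4 of the 26 with neither mark. The shares over all genes in the same states were 97.5%, 49% and 7.9%.

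The CpG content of the promoter, which the rule did not use, differed between the states. Over 1000 bases around the TSS, the ratio of observed to expected CpG had a median of 0.713 at bivalent channel promoters, 0.44 with H3K4me3 only, 0.362 with H3K27me3 only and 0.236 with neither mark. Over all protein-coding genes the medians of these states were 0.721, 0.755, 0.316 and 0.162, with H3K4me3 only highest there and below the bivalent state at channel genes, where it held 7 promoters. RefSeq promoter sequences of GRCm38 matched 99 channel genes by symbol, and 88 of these started within 1000 bp of the GENCODE TSS. In the 250 bases before the start, bivalent promoters held a median of 17.5 CG dinucleotides (40 genes), promoters with H3K4me3 only 10 (5 genes), promoters with H3K27me3 only 5.5 (24 genes) and promoters with neither mark 3 (19 genes), beside a median of 6 over all RefSeq promoters. The states overlapped, with 0 to 43 CG at bivalent promoters, 1 to 21 with H3K27me3 only and 0 to 9 with neither mark. The following 4 sequences are examples of these states and do not span the ranges. Each is the 250 bases before the RefSeq start, written 5′ to 3′ on the strand of the gene, with every CG in capitals. They belong to Kcnd3 (chr3:105451640-105451889, plus strand, bivalent in both conditions), Kcnn1 (chr8:70863259-70863508, minus strand, bivalent in both), Kcnk4 (chr19:6934516-6934765, minus strand, H3K27me3 only in control and bivalent after kd) and Scn2a (chr2:65620519-65620768, plus strand, neither mark in either).
Kcnd3: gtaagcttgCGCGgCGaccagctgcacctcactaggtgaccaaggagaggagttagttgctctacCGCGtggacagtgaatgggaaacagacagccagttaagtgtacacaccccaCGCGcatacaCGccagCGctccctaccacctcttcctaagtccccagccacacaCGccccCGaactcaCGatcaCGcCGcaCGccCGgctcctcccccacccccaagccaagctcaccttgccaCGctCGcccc
Kcnn1: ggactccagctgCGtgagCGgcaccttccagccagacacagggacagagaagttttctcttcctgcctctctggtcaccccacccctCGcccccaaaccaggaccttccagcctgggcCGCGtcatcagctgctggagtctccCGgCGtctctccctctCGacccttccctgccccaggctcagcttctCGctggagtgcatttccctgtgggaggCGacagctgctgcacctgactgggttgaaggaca
Kcnk4: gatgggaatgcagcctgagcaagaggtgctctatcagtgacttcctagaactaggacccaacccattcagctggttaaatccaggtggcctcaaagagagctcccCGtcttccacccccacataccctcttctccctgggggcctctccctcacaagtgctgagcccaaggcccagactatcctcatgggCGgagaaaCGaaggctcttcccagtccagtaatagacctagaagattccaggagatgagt
Scn2a: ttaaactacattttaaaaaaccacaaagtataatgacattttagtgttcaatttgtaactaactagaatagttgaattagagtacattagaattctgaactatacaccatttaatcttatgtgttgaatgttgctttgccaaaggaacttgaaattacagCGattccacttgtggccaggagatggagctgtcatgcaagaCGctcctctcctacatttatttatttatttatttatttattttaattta
These stretches held 18, 10, 3 and 2 CG dinucleotides. GC content was 62.8% at Kcnd3, 63.6% at Kcnn1, 54.8% at Kcnk4 and 29.6% at Scn2a.

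**Figure D4:**
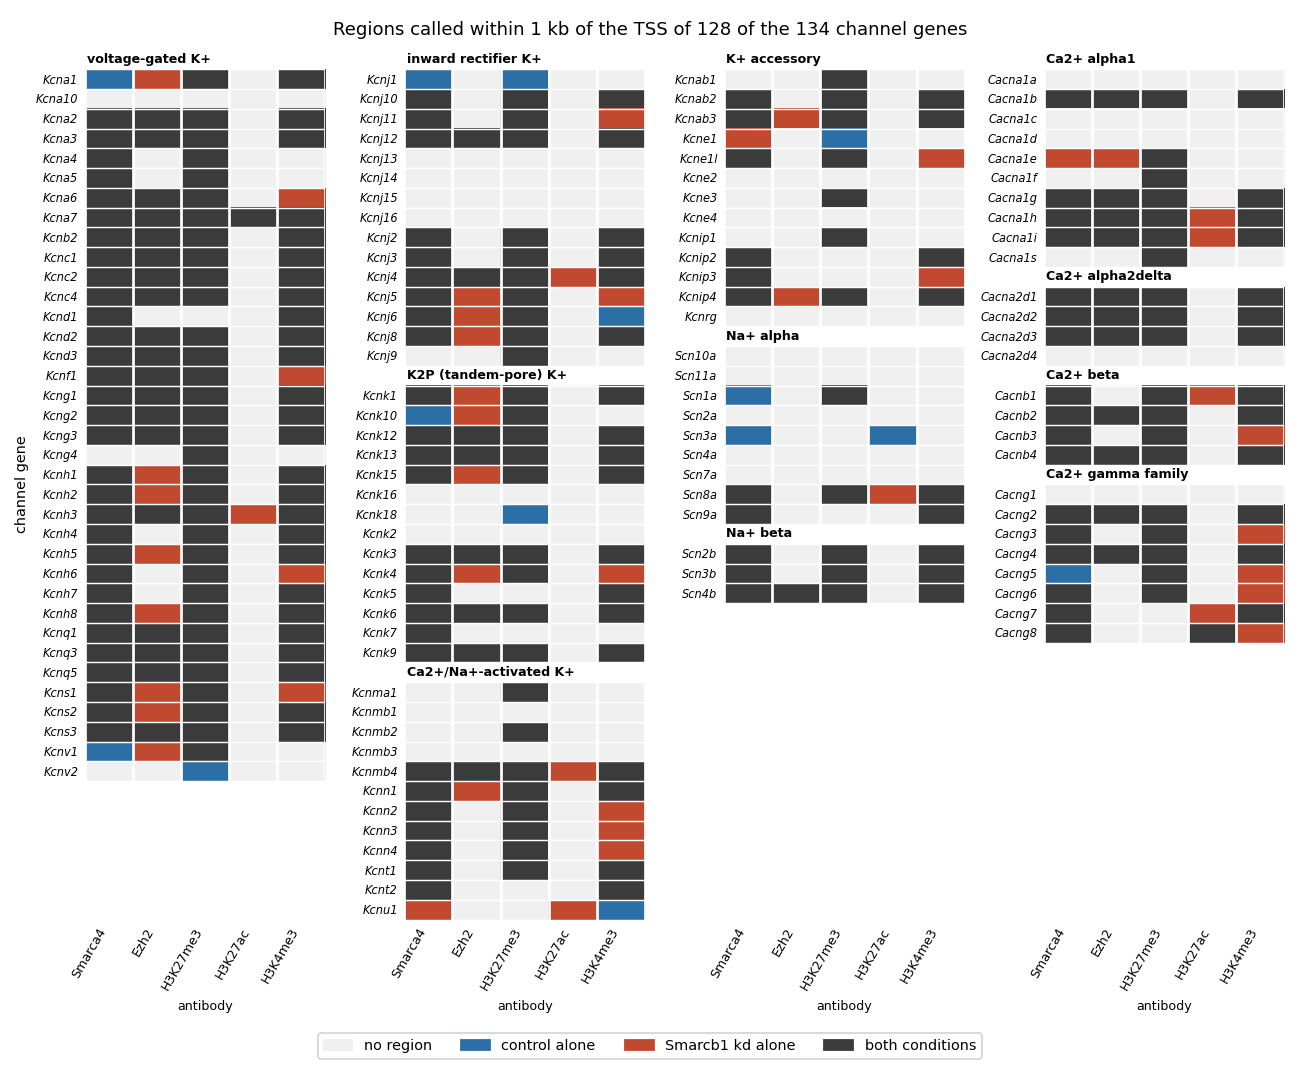
Calls within 1 kb of the TSS for 128 of the 134 channel genes (rows, grouped by subfamily) and 5 antibodies (columns), 1 library per antibody and condition. Dark tiles were called in both conditions, blue in control alone, red in Smarcb1 kd alone, and pale tiles in neither. Red tiles fill the Ezh2 column at 19 genes and the H3K4me3 column at 17, and the sodium channel alpha subunits are mostly pale.

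After Smarcb1 kd, Ezh2 was called at more channel promoters. It was at 44 of the 134 in control (32.8%) and at 63 after kd (47%). All protein-coding genes stood at 7.13% and 12.6%, and at 10.8% and 19.3% at equal length. All 44 control promoters were kept, and 19 were called after kd alone (14.2%, interval 9.27 to 21.1), against 5.78% of all genes and 8.84% at equal length. None was called in control alone, as at 0.283% of all genes. Each of the 44 and each of the 63 also carried H3K27me3 in the same condition. Of the 25 bivalent channel promoters without Ezh2 in control, 13 were called after kd (52%), against 31.1% over all genes in that state. Among 32 promoters with H3K27me3 only it was 6 (18.8%) against 7.1%.

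The strongest of the 19 were Kcna1, Kcnn1 and Kcnk4, with deposited MACS2 scores of 287, 261 and 241 after kd. MACS2 scores are not scaled between libraries: the median of the whole Ezh2 list was 72 in control and 124 after kd. Kcna1 (chr6:126640397-126646384) encodes Kv1.1, a low-threshold potassium channel of axons. Its call depends on the window, since a control peak with a score of 261 lay further inside the gene (chr6:126643287-126645238), next to a second annotated start, and the kd peak (chr6:126642819-126646210) contained it and reached to within 1 kb of the outer TSS. Kcnn1 and Kcnk4 had no Ezh2 peak anywhere in the gene region in control. Kcnn1 encodes the small-conductance calcium-activated channel SK1, and its kd peak spanned 2089 bp over the TSS (chr8:70862483-70864571). Kcnk4 encodes the mechanosensitive K2P channel TRAAK, and its kd peak spanned 1026 bp (chr19:6933387-6934412). Both genes lay wholly inside H3K27me3 islands in both conditions.

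Where Ezh2 was called in both conditions, its peaks covered more bases after kd in most channel genes, as they did in most genes elsewhere. Of 59 channel gene regions with Ezh2 in both lists, 52 (88.1%) held more peak bases after kd, with a median ratio of 1.6. Over all 2065 genes of this kind the share was 93.9% and the median ratio 1.62. The strongest peaks sat at Kcnd3, the gene of the transient outward channel Kv4.3, with scores of 549 in control and 1168 after kd. They covered 1306 bp (chr3:105451800-105453105) and 2123 bp (chr3:105451174-105453296). Kcnma1, the large-conductance calcium-activated channel, had 459 and 1137. Kcnk9, the acid-sensitive leak channel TASK-3, had 491 and 786. In each of these genes the higher score was that of the kd library.

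In the whole gene region the comparison was less clean. Ezh2 was called in kd alone at 18 channel genes (13.4%) and in control alone at 6 (4.48%), beside 5.96% and 3.19% of all genes. Of the 20 Ezh2 peaks in channel gene regions without a counterpart after kd, 19 consisted for at least 50% of repeat-masked bases, and of the 37 without a counterpart in control 0 did. Over all protein-coding genes these shares were 83.2% and 1.01%. Without repeat-masked peaks, Ezh2 was called in 58 channel genes in control and 77 after kd, a difference of 14.2 percentage points against 8.96 with them.

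**Figure D5:**
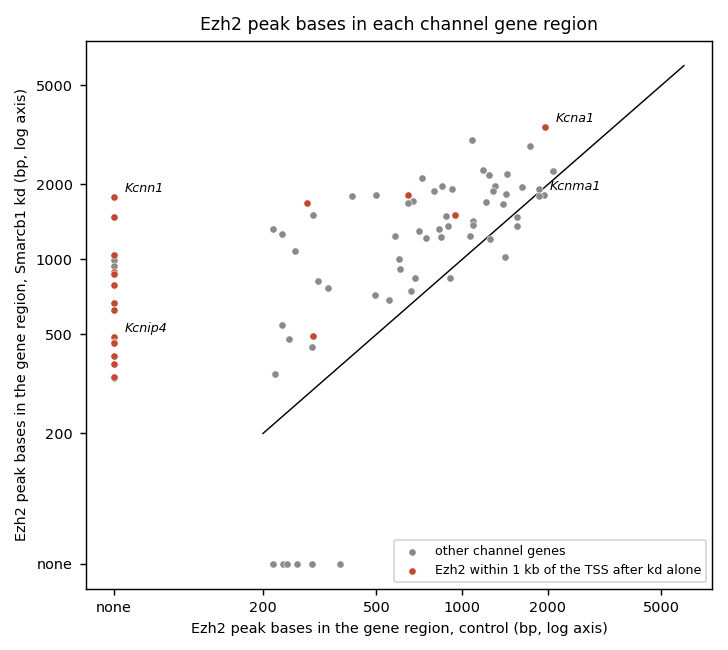
Bases covered by Ezh2 peaks in each channel gene region in control (horizontal) and after Smarcb1 kd (vertical), in bp on log axes, 1 point per gene with a peak in either list, 1 library each, with the line of equality. Points at "none" had no peak in that list, and red points are the 19 genes with Ezh2 within 1 kb of the TSS after kd alone. Of the genes with peaks in both, 52 of 59 lie above the line.

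H3K4me3 was likewise called at more channel promoters after kd. It appeared in kd alone at 17 (12.7%, interval 8.07 to 19.4), against 4.59% of all genes and 4.44% at equal length, and in control alone at 2, Kcnu1 and Kcnj6, against 0.779% of all genes. In 15 of the 17 the promoter carried H3K27me3 in both conditions and so moved from H3K27me3 only to bivalent. This is 44.1% of the 34 channel promoters with H3K27me3 only in control, while over all genes the share was 22.9%. The bivalent class grew from 67 to 80 channel promoters (50% to 59.7%), while all genes stood at 21.2% and 21.6%. Ezh2 was called after kd at 5 of the 17, and at 3 of them after kd alone. The islands of the 17 were 0.4 to 3.4 kb wide. At Kcnk4 the island was 1.2 kb wide, at Cacng8, a gene of the gamma family whose products travel with AMPA receptors, 3.4 kb, and at Kcnj11, the pore of the ATP-sensitive channel Kir6.2, 2.6 kb. The other members that moved to bivalent were Cacnb3, Cacng3, Cacng5, Cacng6, Kcna6, Kcne1l, Kcnf1, Kcnh6, Kcnj5, Kcnn2, Kcnn3, Kcnn4 and Kcns1. The last 2 of the 17, Cacng8 and Kcnip3, moved from neither mark to H3K4me3 only. Cacnb3, Kcnn2 and Kcnip3 were already bivalent in control at another annotated start. The Shaker-type gene Kcna3 had the largest share of its region under H3K4me3 in control, 62%, with 55.1% after kd, while Kcnk4 had none in control and 57.1% after kd. In the whole gene region, H3K4me3 was called in kd alone at 16 channel genes (11.9%) and in control alone at 2, beside 5.49% and 0.825% of all genes.

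Bivalent channel promoters largely kept both marks. Of the 67, 65 were bivalent after kd (97%), against 81.4% of all bivalent promoters. Of the other 2, 1 kept H3K4me3 alone, a move made by 16.9% of all bivalent promoters, and Kcnj6 kept H3K27me3 alone. H3K27me3 at the promoter was called in control alone at 5 channel genes (3.73%), among them Kcne1, Kcnj1, Kcnk18 and Kcnv2, and in kd alone at 0, against 8.15% and 2.39% of all genes. Kcne1, the accessory subunit that slows Kcnq1 currents, had 61.3% of its region under H3K27me3 in control and none after kd. In the whole gene region, H3K27me3 was called in control alone at 8 genes and in kd alone at 2, against 9.74% and 2.95% of all genes.

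A smaller part of the channel genes lay under H3K27me3 after kd. The islands covered 15.1% of the joint channel gene regions in control and 11.2% after kd, beside 9.13% and 6.41% of all gene regions. The median share of a single channel gene under H3K27me3 was 37.7% in control and 16.5% after kd. Within single genes the typical difference was small, since the median ratio of covered bases after kd to control was 0.986 over the 108 channel genes with islands in both, beside 0.927 over all such genes. Among these 108, 55 had fewer bases after kd (50.9%) and 36 more, against 55.7% with fewer over all genes. The alpha1 genes of T-type calcium channels illustrate the range. Cacna1h had 89.4% of its region covered in control and 14.2% after kd, Cacna1i 47.8% and 6.04%, and Cacna1g 98.8% and 70.7%. Kcna2 (Kv1.2) went the other way, with 43.4% and 79.8%, as did Kcnj2 with 50.1% and 84.4%. The short genes Kcna1, Kcna3 and Kcna5 were covered over 100% of the region in both conditions.

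H3K27ac was rare at channel promoters in both conditions. It was called at 4 of the 134 in control (2.99%), among them Cacng8, Kcna7 and Scn3a, and at 14 after kd (10.4%), against 16% and 30.9% of all genes. It was called in kd alone at 11 (8.21%, interval 4.65 to 14.1), beside 16.8% of all genes, and in control alone at Scn3a only, beside 1.83%. The 11 included Cacna1h, Cacna1i, Cacnb1, Cacng7, Kcnh3, Kcnj4, Kcnmb4, Kcnu1 and Scn8a, and 9 of the 11 carried H3K27me3 at the promoter after kd. Cacnb1, the beta subunit of skeletal muscle calcium channels, had 10.8% of its 22.5 kb region under H3K27ac after kd and none in control. Cacng7 had the largest share in both conditions, 54.7% and 63.5%, and carried H3K4me3 without H3K27me3. Kcna7, a Shaker-type gene, had 6.81% in control and 57.7% after kd although its promoter was bivalent with Ezh2 in both. In the gene region H3K27ac was called in kd alone at 24 channel genes (17.9%) and in control alone at 3, against 18.9% and 3.06% of all genes and 17.7% in kd alone at equal length. Of the 109 islands in channel genes in control, 95 (87.2%) were repeat-masked over at least 50% of their bases, and of the 174 after kd 129 (74.1%), beside 57.4% and 52.2% in all gene regions. Without these islands the difference between the conditions was 14.2 percentage points of the channel genes, against 15.7 with them.

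Smarca4 was called at 98 channel promoters in control and 94 after kd (73.1%, interval 65.1 to 79.9, and 70.1%, interval 61.9 to 77.2). All genes stood lower, at 62.5% and 63.5%, while the 69.5% and 70.3% at equal length lay inside the intervals. It was called in control alone at 7 (5.22%), Cacng5, Kcna1, Kcnj1, Kcnk10, Kcnv1, Scn1a and Scn3a, and in kd alone at 3, Cacna1e, Kcne1 and Kcnu1, against 2.69% and 3.69% of all genes. The peaks spread around the median of their list, which was 64 in control and 63 after kd. Those of the control list scored 153 at Cacng5, 70 at Kcnv1 and 57 at Scn3a, and those of the kd list 76 at Kcnu1, 49 at Cacna1e and 28 at Kcne1. The strongest peaks stood at Kcns2, an electrically silent Kv subunit, with 831 in control and 884 after kd, and at Kcnk3, the leak channel TASK-1, with 772 and 556. Cacng2, the gene of the AMPA receptor partner stargazin, had 341 and 804. In gene regions, Smarca4 was called in control alone at 4 channel genes and in kd alone at 1, against 2.45% and 3.85% of all genes.

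Fewer Smarca4 peaks were called in channel genes after kd. There were 556 peaks in the joint channel gene regions in control and 449 after kd, or 33.4 and 27 per Mb, beside 48.8 and 41.7 per Mb in all gene regions. Of 113 channel genes with Smarca4 in both lists, 79 had fewer peak bases after kd (69.9%), against 59.3% of all such genes. Most of these peaks were away from the TSS, since 28.2% of them in control and 31.8% after kd touched the promoter window. Cacna1a, the P/Q-type calcium channel of synapses, held 54 peaks in control and 29 after kd, the highest number among the 134 in both lists.

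The subfamilies differed in their promoter states. Over all genes 21.2% of promoters were bivalent in control and 21.6% after kd, and 29.7% and 32% had neither mark. Among the 40 Kv genes 29 were bivalent in control and 32 after kd, and Ezh2 was at 22 and 30 of their promoters (55% and 75%, against 10.8% and 19% of all genes at equal length). Kcnc1 (Kv3.1) and Kcnd2 (Kv4.2) were bivalent in both conditions with Ezh2 in both. The neuronal gene Kcnq3 had an Ezh2 score of 35 in control and 300 after kd. The axonal Kv1.2 gene Kcna2 had 152 and 727. Kcnh2, the hERG channel of cardiac repolarisation, had Ezh2 after kd alone, with a score of 69. Kcnq1, its partner in the heart, was bivalent in both conditions, and H3K27me3 covered 71.5% of its 322 kb region in control and 70.6% after kd.

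Potassium channels outside the Kv group were mixed. Among the 15 inward rectifiers 7 were bivalent in control and 8 after kd, and 4 had neither mark in control, near the 29.7% of all genes. Kcnj2, which stabilises the resting potential of muscle, was bivalent in both conditions without Ezh2. Kcnj9 and Kcnj10 are neighbours and share an H3K27me3 island, so that their calls are not independent. Of 14 K2P genes, 5 had Ezh2 at the promoter in control and 9 after kd (35.7% and 64.3%, against 8.08% and 14.7% at equal length). Kcnk1, the leak channel TWIK-1, was bivalent in both conditions and had an Ezh2 peak after kd alone, with a score of 114. Kcnk2, the mechanosensitive channel TREK-1, had neither mark at its outer TSS although Ezh2 covered 1253 bp of its region in control and 1206 bp after kd. The calcium- and sodium-activated group had 3 bivalent promoters in control and 6 after kd, the 3 added being the SK genes Kcnn2, Kcnn3 and Kcnn4. Of the 13 accessory subunits, 3 were bivalent in control, near the 21.2% of all genes, and 4 after kd. Kcnab2, a beta subunit of Shaker-type channels, was bivalent in both conditions without Ezh2, and H3K27me3 covered 32.3% of it in control and 12.9% after kd. Kcnip1, a calcium sensor of Kv4 channels, held 15 H3K27me3 islands in control and 10 after kd.

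Sodium channels split by subunit. All 4 beta subunit promoters were bivalent in both conditions. By contrast, 6 of the 10 alpha subunit promoters had neither mark in either condition: Scn2a, Scn3a, Scn4a, Scn7a, Scn10a and Scn11a. Scn8a, which drives firing at the axon initial segment, was bivalent in both. Scn1a, Scn2a, Scn3a, Scn7a and Scn9a are neighbours on chromosome 2, from chr2:65457118 to chr2:66784914. Of these 5 genes H3K27me3 was called in Scn1a alone, over 3.53% of its region in control and 3.76% after kd. H3K27ac islands covered 15.6% and 16.2% of Scn7a, 10.4% and 10.8% of Scn2a, 9% and 9.94% of Scn1a, 6.56% and 3.05% of Scn3a, and none of Scn9a.

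Calcium channel alpha1 genes need care with the TSS. In the window at the outermost TSS, 4 of 10 were bivalent in both conditions. Cacna1a, Cacna1c and Cacna1d had neither mark there, yet both marks were called at inner annotated starts. The Smarca4 peak of Cacna1a in control, with a score of 743, lay 27.5 kb inside the gene (chr8:84415359-84416524) and within 157 bp of an annotated TSS. At Cacna1c, the L-type channel of heart and brain, the Ezh2 peaks with scores of 257 in control and 656 after kd were centred within 81 bp and 50 bp of one. Cacna1b, the N-type channel of nerve terminals, was bivalent at the outermost TSS, with Ezh2 scores of 22 and 197. Cacna1e, the R-type channel, had H3K27me3 alone there, and Ezh2 after kd alone with a score of 52. Over all its annotated starts it was bivalent in both conditions. Near an inner start it had Ezh2 peaks with scores of 45 in control and 154 after kd. Kcnma1 was of the same kind, with the centre of its Ezh2 peak 42 bp from an inner start in control and 2 bp from it after kd. When regions were asked for within 1 kb of any annotated protein-coding TSS, 79 channel genes were bivalent in control (59%) and 89 after kd (66.4%), against 23.7% and 23.8% of all genes. The 19 Ezh2 calls in kd alone remained 19 in number under this choice, but not at the same genes. Cacna1e, Kcna1 and Kcnk10 had a control peak centred within 1 kb of another annotated start, with scores of 45, 261 and 83. The 17 H3K4me3 calls in kd alone became 14. The genes of the alpha2delta and beta subunits were mostly bivalent, with 3 of 4 each in control. Cacna2d1, the subunit bound by gabapentin, had Ezh2 scores of 98 and 312. Among the 8 gamma family genes, bivalent promoters numbered 2 in control and 5 after kd, beside 21.2% and 21.6% of all genes.

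At 6 channel genes no region of any of the 10 lists was called: Kcne2, Kcne4, Kcnj13, Kcnj15, Kcnmb1 and Scn11a (4.48%, against 16.7% of all genes and 9.1% at equal length). Of the 134 genes, 18 overlap another protein-coding gene region, among them Kcnk4, Kcnh3, Cacna1h and Kcnu1, so that a region there may belong to the neighbour.

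A sequence feature that the rule did not use was more frequent in channel genes than at equal length, although most of them lacked it. The repressor REST binds a well-known element at neuronal genes, and Scn2a was one of the genes through which it was described. The letters TTCAGCACC, 2 free bases and GGACAG were searched in GRCm38 on both strands with mismatches counted over these 15 bases. Matches with 0 mismatches lay in 6 channel gene regions (4.48%), against 0.524% of all genes and 1.09% at equal length. With up to 1 mismatch there were 28 matches in 23 channel genes (17.2%), against 2.53% and 5.36%, or 1.68 matches per Mb beside 0.578. With up to 2 mismatches it was 34.3% against 13.6% and 25.5%. The following 5 matches with up to 1 mismatch lay within 1 kb of the TSS, and they are shown because they can be set beside the promoter calls. Matches with 2 mismatches in the same window, at Cacng3 and Kcnh8, are not shown. The 5 are written 5′ to 3′ on the strand of the match, with the compared bases in capitals. Positions are chr2:65619964-65619980 (plus strand) for Scn2a, chr11:100759011-100759027 (minus) for Kcnh4, chr17:87798584-87798600 (plus) for Kcnk12, chr2:25864076-25864092 (minus) for Kcnt1 and chr9:40269744-40269760 (minus) for Scn3b.
Scn2a: TTCAGCACCacGGACAG
Kcnh4: TTCAGCACCctGGACAG
Kcnk12: GTCAGCACCgcGGACAG
Kcnt1: CTCAGCACCgcGGACAG
Scn3b: CTCAGCACCacGGACAG
The matches of Scn2a and Kcnh4 have 0 mismatches and the other three 1 each. The Scn2a match lies upstream of the TSS (position -807) and was in no called region of any list. The remaining matches lay inside Smarca4 peaks in both conditions, with scores in control and after kd of 207 and 242 at Kcnh4, 486 and 364 at Kcnk12, 340 and 334 at Kcnt1, and 501 and 379 at Scn3b. Of the 28 matches with up to 1 mismatch in channel genes, 14 lay in a Smarca4 peak in control and 14 after kd (50%), against 35.3% and 42% of such matches in all protein-coding gene regions. With 0 mismatches it was 3 of 7 in each condition (42.9%), below the 50.9% and 59.6% of all gene regions. A match describes letters only, and binding of REST was not measured here.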

How the data were processed

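Chromatin of 81K1 mESC was sequenced with 5 antibodies in control and Smarcb1 kd cells, 1 library each. The authors trimmed reads with Trim Galore, aligned them to mm10 with Bowtie2 and filtered with SAMtools 1.9 (tools per the labels). The authors called Smarca4 and Ezh2 peaks with MACS2 at default settings, and the deposited value is the MACS2 score. They called islands of the 3 histone marks with SICER (200 bp windows, 600 bp gaps), and the deposited value is a p-value, filtered by the authors at 1e-05 for H3K27ac and 1e-10 for the others. The methods name input as the background and the labels name IgG, so that this is not certain. Neither score nor p-value is scaled between libraries, and depth is unknown.

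Only regions of the 19 autosomes and the sex chromosomes were kept and intersected (at least 1 bp) with gene regions and TSS windows of GENCODE M21 in Python 3.11.15 with numpy 2.4.6 and pandas 2.3.3. The TSS is the outermost annotated start. Repeats were read from the soft masking of GRCm38, and a region counted as repeat-masked from 50% of its bases. Wilson intervals at 95% cover counting error only. The overlap and length steps were tested on simulated regions with known answers.

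Named genes are, per antibody, up to 3 promoters called in 1 condition alone with the strongest region, the 3 genes with the strongest peak or largest covered share, and fixed well-known genes of each subfamily. A few genes are not reported here by name. Other short lists of genes changing state are given in full, and genes named for an inner start or a REST match were chosen after their values were seen. The members, lists and the REST letters were chosen with earlier results of these data known. Alternatives were a stricter threshold (score of at least 50, or p of at most 1e-10 for H3K27ac and 1e-20 for the others), at least 50% of the peak inside the gene, the 1 kb window, lists of equal length, and leaving out repeat-masked regions, chromosomes 8, X and Y, or regions shared with another gene, and 10 or no length classes. Alternatives for the promoter counts, any annotated TSS included, were added after the data were seen.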

Additional observations from a re-analysis of the deposited data

How the results depend on the processing

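The differences between conditions in the percent of channel genes with a called region, and the excess over the length-standardised percent, were recomputed under each alternative. Of 125 such values 109 stayed within the interval of the reported value, 14 left it and 2 were classed as reversed. Both reversed values came with no length classes. There the H3K27ac deficit of -13.3 percentage points in control became an excess of 1.23 and that of -11.8 after kd one of 1.03. The same setting raised the excess of Smarca4 to 17 in control and 13.4 after kd, of Ezh2 to 35.9 and 42.1, and of H3K27me3 to 44.2 and 46.5. For H3K4me3 it turned a deficit of -5.54 in control into an excess of 5.96, and raised 0.932 after kd to 11.7. These shifts follow from comparing long genes with genes of all lengths. Without regions shared with another protein-coding gene the excess was 16.5 and 12.6 for Smarca4 and 5.31 and 12.9 for H3K4me3, and the cause was not tested. Within 1 kb of the TSS the kd minus control difference of H3K27ac was 7.46 percentage points, and its deficit after kd was -20.2. Without repeat-masked regions the H3K27ac counts were 10 channel genes in control and 29 after kd, from 45 and 66. The excess of Ezh2 and of H3K27me3 was positive under all 9 alternatives in both conditions. Smaller values changed sign without being classed as reversed. The H3K4me3 value in control, reported as -5.54, was positive under 2 of the 9. That of H3K4me3 after kd, reported as 0.932, was positive under 6, and that of Smarca4 after kd, reported as 3.68, under 8.

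Counts of promoters called in 1 condition alone moved by over 1.5 times in 7 cases, all with counts of at most 5. Ezh2 in kd alone ranged from 19 to 24 promoters and H3K4me3 in kd alone from 12 to 21. No paired analysis was possible because each antibody and condition has 1 library, and no library could be left out. Without replicates and depths, a difference between conditions cannot be told apart from one between libraries, and a region that was not called is not shown to be absent. The outermost TSS misses inner promoters of long genes.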

Other observations

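Lists of 90 other ion channel genes (among them Hcn, Trp, chloride and ligand-gated cation channels) and 38 glutamate and GABA receptor genes were set beside the voltage-gated and related channels. The receptor genes had H3K27me3 at 30 promoters in control and 29 after kd (78.9% and 76.3%, against 47.7% and 44.7% of all genes at equal length), and Ezh2 at 12 and 16 (31.6% and 42.1%, against 14.7% and 26%). The other ion channels had H3K27me3 at 53 and 49 of 90 (58.9% and 54.4%, against 40.6% and 36%), and Ezh2 at 11 and 16. Their Ezh2 shares of 12.2% and 17.8% stood beside 10.2% and 18.5% at equal length. H3K27ac was called at 0 of the 38 receptor promoters in control and 1 after kd, against 15.4% and 29.1% at equal length, and at 8 and 16 of the 90 other channel promoters (8.89% and 17.8%, against 17.5% and 32.6%).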
